A study of Homo sapiens with 27 samples.

Results

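The shRNAs described here were the 63 of 3177 in a pooled kinome screen that were less abundant with both gefitinib and AZD8931 than with DMSO in both UMSCC25 and UMSCC8 cells. Abundance is in CPM, counts per 1000000 counts of the library. An shRNA was taken when its mean over the 3 DMSO plates was at least 50 CPM in both lines and its treated to DMSO ratio of mean CPM was at most 0.75 with each inhibitor in each line. The DMSO minimum was met by 2389 shRNAs, and 63 of these met all 4 ratio limits. A further 34 met the opposite limits, with ratios of at least 1.33 in the same 4 comparisons. UMSCC1 cells took no part in the choice, so the values from that line are the only ones in which the 63 shRNAs could be tested.

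UMSCC25, UMSCC8 and UMSCC1 are cell lines from head and neck squamous cell carcinoma (HNSCC). Each carried the TRC1 kinome shRNA library, delivered by lentivirus, was selected with puromycin, and was then divided into 9 plates. The gefitinib group had 3 plates, the AZD8931 group had 3 and the DMSO vehicle group had 3, in each of the 3 lines, giving 27 libraries. One label field and the study's methods give 300 nM for gefitinib and 30 nM for AZD8931, and another label field gives 1 µM for both. Agents were present for 72 h, drug-free medium followed for 72 h, and genomic DNA was taken at 144 h. With the doses given in conflicting ways, the inhibitors were not tested against each other. Cells were divided into plates after transduction and selection, so the spread between plates of a group may be technical.

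Gefitinib inhibits the tyrosine kinase of the epidermal growth factor receptor (EGFR), a receptor that drives growth in many HNSCC cells, and AZD8931 inhibits EGFR together with its relatives ERBB2 and ERBB3. In a pooled screen each cell carries a short hairpin RNA that lowers the mRNA of 1 gene, and the integrated hairpin cassette serves as a tag that is counted by sequencing. A hairpin whose cells divide less or die more under a drug makes up a smaller share of the library after treatment. A smaller share can also follow from chance loss of few cells, and several hairpins to a gene are needed to tell a target effect from an off-target one.

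The clones are listed by the identifiers of The RNAi Consortium (TRCN followed by 10 digits), and the table pairs no identifier with a gene. The paper pairs 6 with TGFBR1 or TGFBR2, and 1 of the 63, TRCN0000040011, is among them. Hairpin sequences and the targets of the other 62 were not analysed here. Library totals ranged from 178406 to 559422 counts, so 3 counts, the limit that a count of 0 allows, stood for 5.36 to 16.8 CPM. These limits cover counting error only. Replicate plates differed by more than sampling noise, the reduced chi-square of pairs of plates running from 6.21 to 43.1. DMSO plate 1 of UMSCC8 had 328 shRNAs at 0, against 81 to 139 in the other 8 libraries of the line, and AZD8931 plate 1 of UMSCC1 had 354, against 163 to 260 in the other 8.

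The 63 shRNAs were less abundant with DMSO than the 2389 shRNAs at the DMSO minimum. Their median DMSO mean was 150.1 CPM in UMSCC25, 189 in UMSCC8 and 112 in UMSCC1, against 219, 229 and 206 CPM for the 2389. Of the 63, 32 were under 200 CPM in both UMSCC25 and UMSCC8, and 6 were at 500 CPM or more in both. The DMSO mean was lower in UMSCC1 than in both other lines for 43 of the 63 (68.3%), against 45.1% of the 2389. The rule reads the DMSO values of UMSCC25 and UMSCC8, so a high DMSO value there helped an shRNA to enter, and these shares are a description.

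Ratios within the 4 comparisons used by the rule are likewise a description of what was selected. With gefitinib in UMSCC25 they ran from 0.213 to 0.749 with a median of 0.546, where 25.4% of the 2389 shRNAs met the limit. With AZD8931 in UMSCC25 they ran from 0.222 to 0.740 with a median of 0.554, where 24.5% met it. With gefitinib in UMSCC8 the range was 0.123 to 0.742 and the median 0.504, where 30.5% met the limit. With AZD8931 in UMSCC8 the range was 0.231 to 0.747 and the median 0.566, where 23.6% met it.

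How low the ratios were differed between the 63 and between the comparisons. A ratio of at most 0.5 was found for 22 with gefitinib and 21 with AZD8931 in UMSCC25, and for 30 with gefitinib and 27 with AZD8931 in UMSCC8. Only 3 of the 63 had all 4 ratios at or under 0.5, and 15 had all 4 at or under 0.6. The geometric mean of the 4 ratios ran from 0.302 to 0.689 with a median of 0.503.

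The plates of a group often overlapped even where the means met the limit. All 3 gefitinib plates lay below all 3 DMSO plates for 33 of the 63 in UMSCC25 (10.3% of the 2389, which include the 63) and for 37 in UMSCC8 (12.6% of the 2389). With AZD8931 this was so for 34 in UMSCC25 (13.1% of the 2389) and for 35 in UMSCC8 (9.92% of the 2389). It held in all 4 comparisons for 11 of the 63, and for 13 of the 2389 (0.544%). Another 11 were separated in 3 comparisons, 23 in 2, 16 in 1 and 2 in none. The 11 were TRCN0000006169, TRCN0000000797, TRCN0000040011, TRCN0000001495, TRCN0000001643, TRCN0000000575, TRCN0000037498, TRCN0000021599, TRCN0000055433, TRCN0000025501 and TRCN0000000371, with geometric mean ratios of 0.345 to 0.656. The contrasts are those that chose the shRNAs, so nothing is read from the excess over the background.

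A single DMSO plate carried much of the reference value for some. One plate held more than 50% of the summed DMSO CPM for 6 of the 63 in UMSCC25 and for 10 in UMSCC8. In UMSCC8 that plate was plate 1 for 6, plate 2 for 3 and plate 3 for 1. The same share was not counted over the 2389, so it is not read as particular to the 63. Plate 1 of UMSCC8, the library with the many zeros, was the highest of the 3 for 29 of the 63, where it was the highest for 36.3% of the 2389. Chosen without that plate, the rule gave 87 shRNAs, 52 of them among the 63.

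Of the 8 shRNAs with the lowest geometric mean ratios, 7 had a DMSO mean below the median of the 63 in at least 1 of the lines. The same share was not counted over the 63, so no link between abundance and ratio is read from it. TRCN0000001624 had the lowest, 0.302. In UMSCC25 it had 31.9, 20.1 and 6.19 CPM on the gefitinib plates and 22.2, 45.7 and 14.0 CPM on the AZD8931 plates, against 73.8, 59.8 and 139.9 CPM on the DMSO plates. The UMSCC8 values were 66.5, 40.7 and 11.2 CPM on the gefitinib plates and 90.9, 23.9 and 49.4 CPM on the AZD8931 plates, against 49.2, 168 and 168 CPM on the DMSO plates. The groups were apart in UMSCC25 with both inhibitors, and in UMSCC8 the lowest DMSO plate overlapped the treated ones. The low gefitinib values rested on 13, 8 and 3 counts in UMSCC25 and 27, 21 and 2 in UMSCC8.

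The next, TRCN0000021199, shows the weight of a single plate. Its values in UMSCC8 were 24.6, 58.1 and 16.8 CPM on the gefitinib plates and 124, 127 and 67.2 CPM on the AZD8931 plates, against 538, 149 and 120.3 CPM on the DMSO plates, and its gefitinib ratio of 0.123 was the lowest of all the ratios behind the choice. DMSO plate 1 held most of that reference, and the AZD8931 plates overlapped the other DMSO plates. In UMSCC25 it had 63.7, 50.3 and 72.2 CPM on the gefitinib plates and 33.3, 54.4 and 16.8 CPM on the AZD8931 plates, against 26.1, 171 and 90.4 CPM on the DMSO plates, and there the DMSO plates lay on both sides of the gefitinib plates.

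For TRCN0000006169 and TRCN0000000797 every treated plate lay below every DMSO plate in all 4 comparisons. TRCN0000006169 had 80.9, 78.0 and 26.8 CPM on the gefitinib plates and 37.0, 104 and 33.6 CPM on the AZD8931 plates, against 217, 107 and 213 CPM on the DMSO plates in UMSCC25. In UMSCC8 it had 54.2, 17.4 and 44.8 CPM on the gefitinib plates and 17.7, 19.9 and 11.9 CPM on the AZD8931 plates, against 70.2, 80.4 and 63.1 CPM on the DMSO plates. The AZD8931 ratio there, 0.231, was the lowest of the 63 in that comparison. TRCN0000000797 had 71.1, 70.4 and 6.19 CPM on the gefitinib plates and 42.5, 30.4 and 8.39 CPM on the AZD8931 plates, against 78.2, 115 and 90.4 CPM on the DMSO plates in UMSCC25. The UMSCC8 values were 37.0, 48.4 and 22.4 CPM on the gefitinib plates and 50.5, 33.8 and 37.5 CPM on the AZD8931 plates, against 138, 117 and 96.7 CPM on the DMSO plates, with the 3 DMSO plates close to each other.

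TRCN0000007127 had 120.1, 62.9 and 47.4 CPM on the gefitinib plates and 14.8, 23.9 and 39.2 CPM on the AZD8931 plates, against 67.3, 203 and 55.9 CPM on the DMSO plates in UMSCC25, where only AZD8931 separated the plates. Its values in UMSCC8 were 12.3, 42.6 and 5.61 CPM on the gefitinib plates and 116, 35.8 and 57.3 CPM on the AZD8931 plates, against 157, 60.9 and 118 CPM on the DMSO plates, where only gefitinib did. TRCN0000037763 had 0, 19.4 and 33.6 CPM on the gefitinib plates and 20.2, 45.8 and 29.6 CPM on the AZD8931 plates, against 101, 70.6 and 73.0 CPM on the DMSO plates in UMSCC8. Those groups did not overlap with either inhibitor, but the gefitinib mean rested on 0, 10 and 6 counts. In UMSCC25 the same hairpin had 22.1, 22.6 and 92.8 CPM on the gefitinib plates and 20.3, 28.3 and 44.8 CPM on the AZD8931 plates, against 106, 83.3 and 47.3 CPM on the DMSO plates, with 1 gefitinib plate above 2 of the DMSO plates.

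TRCN0000003117 had 31.9, 30.2 and 45.4 CPM on the gefitinib plates and 31.4, 69.6 and 28.0 CPM on the AZD8931 plates, against 63.0, 113 and 189 CPM on the DMSO plates in UMSCC25, where the gefitinib plates lay below the DMSO plates and 1 AZD8931 plate did not. In UMSCC8, where its DMSO mean of 57.9 ± 20.4 CPM (SD, n = 3) was just above the minimum, it had 24.6, 13.6 and 22.4 CPM on the gefitinib plates and 22.7, 29.9 and 47.4 CPM on the AZD8931 plates, against 79.6, 39.0 and 55.2 CPM on the DMSO plates. TRCN0000006033 was the most abundant of the 8. It had 103, 168 and 43.3 CPM on the gefitinib plates and 83.2, 102 and 55.9 CPM on the AZD8931 plates, against 274, 222 and 258 CPM on the DMSO plates in UMSCC25 and was apart with both inhibitors. In UMSCC8 it had 106, 132 and 112 CPM on the gefitinib plates and 199, 153 and 166 CPM on the AZD8931 plates, against 199, 368 and 495 CPM on the DMSO plates, and there DMSO plate 1 was just under the highest AZD8931 plate.

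Of the 6 most abundant members, 4 had a geometric mean ratio above the median of the 63. TRCN0000000371 was by far the most abundant, with 14242, 11799 and 15012 CPM on the gefitinib plates and 16969, 14890.2 and 13312 CPM on the AZD8931 plates, against 21409, 19208 and 21349.6 CPM on the DMSO plates in UMSCC25. The UMSCC8 values were 8437, 10921 and 9204 CPM on the gefitinib plates and 12495, 9797 and 10521 CPM on the AZD8931 plates, against 15939, 19703 and 13809.5 CPM on the DMSO plates. Its 12 treated plates in these lines were all below its DMSO plates, at ratios of 0.663 with gefitinib and 0.729 with AZD8931 in UMSCC25, and 0.578 and 0.664 with the same inhibitors in UMSCC8. At 9860, 8992 and 9922 counts on the DMSO plates of UMSCC25, counting error is small beside the plate spread.

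TRCN0000001495 combined high abundance with ratios under 0.5. It had 519.5, 958 and 472 CPM on the gefitinib plates and 429, 509 and 666 CPM on the AZD8931 plates, against 1377, 1367 and 1401 CPM on the DMSO plates in UMSCC25. Its values in UMSCC8 were 343, 314 and 510.1 CPM on the gefitinib plates and 424, 315 and 314 CPM on the AZD8931 plates, against 693, 828 and 892 CPM on the DMSO plates. It was 1 of the 3 with all 4 ratios at or under 0.5, at 0.470 and 0.387 with gefitinib and AZD8931 in UMSCC25 and 0.484 and 0.436 in UMSCC8. No treated plate reached a DMSO plate.

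TRCN0000115280 averaged 1419 ± 373 CPM with gefitinib and 1081 ± 377 CPM with AZD8931, against 2003 ± 293 CPM with DMSO in UMSCC25 (SD, n = 3 each). In UMSCC8 its means were 1699.9 ± 271 CPM with gefitinib and 1773 ± 364 CPM with AZD8931, against 2425 ± 437 CPM with DMSO. One gefitinib plate of UMSCC25 lay above the lowest DMSO plate there, and the other 3 comparisons had no overlap. TRCN0000002039 averaged 479.6 ± 211 CPM with gefitinib and 544 ± 91.3 CPM with AZD8931, against 903 ± 206 CPM with DMSO in UMSCC25. In UMSCC8 its means were 522 ± 213 CPM with gefitinib and 565 ± 139.8 CPM with AZD8931, against 842 ± 110.3 CPM with DMSO. Of these 4 comparisons, its plates overlapped with gefitinib in UMSCC8 only.

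TRCN0000056883 averaged 540.0 ± 228 CPM with gefitinib and 475 ± 166 CPM with AZD8931, against 854 ± 176 CPM with DMSO in UMSCC25. In UMSCC8 it averaged 360.0 ± 124 CPM with gefitinib and 353 ± 178 CPM with AZD8931, against 575 ± 82.9 CPM with DMSO. Plates overlapped in 2 of its 4 comparisons. TRCN0000037498 averaged 326 ± 206 CPM with gefitinib and 276 ± 72.5 CPM with AZD8931, against 528 ± 42.1 CPM with DMSO in UMSCC25. In UMSCC8 its means were 259 ± 64.0 CPM with gefitinib and 320.2 ± 126 CPM with AZD8931, against 739 ± 233 CPM with DMSO. Its plates were apart in all 4.

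TGFBR2 is the type II receptor for TGF-β. Once ligand is bound, its serine/threonine kinase activates the type I receptor TGFBR1, and SMAD proteins carry the signal to the nucleus. GENCODE release 29 places the gene on chromosome 3 (GRCh38, 30606502 to 30694142, plus strand), and the site of the hairpin in the transcript was not analysed here. TRCN0000040011 had 63.7, 111 and 33.0 CPM on the gefitinib plates and 62.9, 45.7 and 55.9 CPM on the AZD8931 plates, against 113, 115 and 157 CPM on the DMSO plates in UMSCC25. In UMSCC8 it had 46.8, 40.7 and 11.2 CPM on the gefitinib plates and 40.4, 99.5 and 86.9 CPM on the AZD8931 plates, against 110.0, 117 and 191 CPM on the DMSO plates. All 12 treated plates lay below the DMSO plates of their line, with ratios of 0.538 and 0.427 for gefitinib and AZD8931 in UMSCC25 and 0.236 and 0.542 in UMSCC8. The paper picked this hairpin from the same libraries, so these values are not independent of that choice.

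The other TGFBR2 hairpin, TRCN0000040008, was not among the 63 because its UMSCC25 DMSO mean was 12.9 ± 4.38 CPM (SD, n = 3), under the minimum. In that line its counts were 0, 10 and 1 with gefitinib and 6, 5 and 0 with AZD8931, against 8, 6 and 4 with DMSO. The UMSCC8 values were 27.1, 71.7 and 95.3 CPM on the gefitinib plates and 68.2, 151 and 63.2 CPM on the AZD8931 plates, against 351, 87.7 and 63.1 CPM on the DMSO plates, and no comparison separated its plates. Its 4 ratios were all under 0.75, at 0.701 and 0.566 with gefitinib and AZD8931 in UMSCC25 and 0.387 and 0.563 in UMSCC8.

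None of the 4 TGFBR1 hairpins met the rule. TRCN0000039774 was under the DMSO minimum in both lines. TRCN0000039775 had ratios of 1.29 with gefitinib and 0.503 with AZD8931 in UMSCC25, and 0.588 and 0.755 in UMSCC8. TRCN0000039776 had 0.754 and 0.666 in UMSCC25 and 1.15 and 0.844 in UMSCC8. TRCN0000039777 had 1.09 and 0.411 in UMSCC25 and 0.633 and 0.609 in UMSCC8, and was kept out by gefitinib in UMSCC25. So 1 of 6 TGF-β receptor hairpins was among the 63, which are taken from 3177 shRNAs. TRCN0000039774 and TRCN0000040008 could not enter, being under the DMSO minimum.

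Clones to 1 gene often have consecutive numbers in this library, as the 4 TGFBR1 clones do, but a shared target cannot be read from a number. Only 3 pairs of the 63 stood within 4 numbers of each other, TRCN0000000409 with TRCN0000000413, TRCN0000002039 with TRCN0000002043, and TRCN0000037495 with TRCN0000037498. Within the same distance of a member stood 376 other shRNAs, 281 of them at the DMSO minimum. Of these 281 neighbours, 23.1% met the limit with gefitinib and 22.4% with AZD8931 in UMSCC25, and 29.5% with gefitinib and 22.8% with AZD8931 in UMSCC8. The shares of the 2389 given above include the 63, which met every limit by the rule, and the neighbours do not. No direction is therefore read from the difference. In UMSCC1, which the rule did not use, 15.7% of the neighbours met the limit with gefitinib and 27.0% with AZD8931. The shares of the 2389 there were 20.1% and 29.9%, and the differences were not tested. The clones numbered next to the TGFBR2 member, TRCN0000040009, TRCN0000040010 and TRCN0000040012, are not paired with a gene here and had no ratio under 0.75 in any of the 6 comparisons.

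UMSCC1 gave the readout that the rule did not use. With gefitinib, 23 of the 63 (36.5%) had a ratio of at most 0.75, against 20.1% of the 2389 shRNAs and 1 of the 34 that were higher in the other lines. Their median ratio was 0.848, against 1.04 for the 2389 and 1.24 for the 34. A ratio below 1 was found for 41 of the 63, against 45.4% of the 2389, and a ratio of at least 1.33 for 13, against 26.1%. With gefitinib the 63 were thus lower more often than the 2389, by a difference that was not tested because shRNAs are not replicates.

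With AZD8931 the 63 stood close to the 2389. In UMSCC1, 18 of the 63 (28.6%) had a ratio of at most 0.75, against 29.9% of the 2389 and 10 of the 34. The median ratio was 0.888, against 0.959 for the 2389 and 0.929 for the 34. A ratio below 1 was found for 34 of the 63, against 54% of the 2389, and a ratio of at least 1.33 for 16, against 23.4%. Both inhibitors gave a ratio of at most 0.75 for 12 of the 63 (19.0%), against 8.46% of the 2389 and 0 of the 34. Gefitinib alone did so for 11, AZD8931 alone for 6 and neither for 34. The 12 were TRCN0000000797, TRCN0000006033, TRCN0000000421, TRCN0000021497, TRCN0000010024, TRCN0000001509, TRCN0000003262, TRCN0000055433, TRCN0000010078, TRCN0000037721, TRCN0000115280 and TRCN0000001768, with UMSCC1 DMSO means of 46.0 to 1045 CPM. The comparisons share the UMSCC1 DMSO plates, so 1 high DMSO mean lowers both ratios.

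The share that was lower with gefitinib in UMSCC1 was larger for shRNAs that met more of the 4 limits in the other lines. It was 13.0% of the 986 that met none, 20.1% of the 662 that met 1, 26.5% of the 465 that met 2, 33.8% of the 213 that met 3 and 36.5% of the 63. With AZD8931 the shares were 25.8%, 32.9%, 33.1%, 33.3% and 28.6% over the same steps, with no such order. DMSO abundance moved with the steps too, with UMSCC1 medians of 252, 189.9, 171, 148 and 112 CPM over them, and its part in the result was not tested. Among shRNAs between 50 and 200 CPM in UMSCC1 DMSO, 14 of 29 members (48.3%) met the gefitinib limit, against 23.1% of all such shRNAs at the minimum. Among those at 200 CPM or more, 6 of 22 members (27.3%) did, against 17.5%. Of the 12 members under 50 CPM there, 3 (25%) did, against 20.4%, and 7 (58.3%) had a ratio of at least 1.33, against 53.8%. The median ratio of the 12 was 1.55, against 1.40 for all such shRNAs.

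Single plates of UMSCC1 differed widely on the 63. Relative to the mean of the DMSO plates, the members' medians were 1.02, 0.687 and 0.895 on the gefitinib plates and 0.957, 0.743 and 0.915 on the AZD8931 plates. Over the 2389 they were 1.02, 0.971 and 1.01 with gefitinib and 0.748, 0.931 and 0.976 with AZD8931. Each DMSO plate was set against the mean of the other DMSO plates, a different divisor that widens their range, and the members' medians were 1.51 on plate 1, 0.575 on plate 2 and 0.865 on plate 3, against 1.06, 0.765 and 1.05 over the 2389.

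Without DMSO plate 1 the gefitinib difference was smaller. Then 18 of the 63 (28.6%) had a gefitinib ratio of at most 0.75, against 18.3% of the 2389, and the members' median was 1.02, against 1.08. With AZD8931, 14 of the 63 (22.2%) met the limit without that plate, against 28.4%, and the members' median was 1.12, against 1.01. Without DMSO plate 2, 28 of the 63 (44.4%) met it with gefitinib, against 25.1%, and 28 (44.4%) with AZD8931, against 35.7%. The direction with AZD8931 therefore turned with the DMSO plate that was left out.

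No shRNA, and so none of the 63, passed an adjusted p of 0.05 in UMSCC1 with either inhibitor by edgeR's quasi-likelihood test over 3083 shRNAs (0 of 3083 lower with gefitinib, 0%, and 0 with AZD8931, 0%). At an unadjusted p under 0.05, 5 of the 63 were lower with gefitinib, where 64 of all tested were (2.08%), and 0 were higher, where 50 of all tested were (1.62%). With AZD8931, 5 of the 63 were lower, where 144 of all tested were (4.67%), and 4 were higher, where 150 of all tested were (4.87%). These counts moved when single plates were left out, as did the lower counts over all tested. The 5 with gefitinib became 1 without DMSO plate 1 (43 of all tested) and 2 without DMSO plate 2 (35). They became 2 without gefitinib plate 1 (49) and 3 without gefitinib plate 3 (46). Without DMSO plate 3 (90) or gefitinib plate 2 (57) they became 4. The 5 lower with AZD8931 became 2 without DMSO plate 3 (75), 3 without DMSO plate 1 (132) and 3 without AZD8931 plate 2 (202). They became 4 without DMSO plate 2 (151) and 6 without AZD8931 plate 1 (110), and stayed 5 without AZD8931 plate 3 (157). The 4 higher became 1 without AZD8931 plate 1, 2 without DMSO plate 2 and 3 to 5 in the other such fits. DESeq2 called 0 with gefitinib and, with AZD8931, 17 lower and 7 higher of all tested, with 0 of the 63 among them. The median fitted log2 fold change of the 63 was -0.29 with gefitinib, against 0.01 over all tested, and -0.03 with AZD8931, against -0.0045 over all. The median standard error of a single member was 0.68 with gefitinib and 0.67 with AZD8931. The smallest adjusted p of a member was 0.999 with gefitinib and 0.424 with AZD8931.

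All 3 gefitinib plates lay below all 3 DMSO plates in UMSCC1 for 4 of the 63, where 4.98% of the 2389 did so. With AZD8931 this held for 5 of the 63, where the share of the 2389 was 6.15%. No member was separated in all 6 comparisons of the screen, and 1 was separated in 5.

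That member, TRCN0000055433, was also among the 5 with the lowest fold changes in UMSCC1. It had 436, 139.7 and 168 CPM on the gefitinib plates and 34.0, 93.7 and 179 CPM on the AZD8931 plates, against 328, 216 and 460.1 CPM on the DMSO plates in UMSCC1. The AZD8931 plates lay below the DMSO plates and the gefitinib plates overlapped them, with a log2 fold change of -1.63 with AZD8931 (SE, standard error, 0.60, edgeR adjusted p = 0.424) and -0.47 with gefitinib (SE 0.58, edgeR adjusted p = 0.999). In UMSCC25 the same hairpin had 348, 219 and 322 CPM on the gefitinib plates and 294, 278 and 473 CPM on the AZD8931 plates, against 506, 515 and 678 CPM on the DMSO plates. Its values in UMSCC8 were 229, 316 and 269 CPM on the gefitinib plates and 303, 378 and 308 CPM on the AZD8931 plates, against 543, 414 and 493 CPM on the DMSO plates. Its treated plates thus lay below the DMSO plates in every comparison but that of gefitinib in UMSCC1.

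Of the members with at least 50 CPM in UMSCC1 DMSO, TRCN0000001509 had the lowest fold changes. It had 9.47, 0 and 7.15 CPM on the gefitinib plates and 2.43, 11.2 and 1.89 CPM on the AZD8931 plates, against 143, 30.9 and 36.6 CPM on the DMSO plates, and these stood for 5, 0 and 4 counts with gefitinib and 1, 3 and 1 with AZD8931, against 66, 8 and 18 with DMSO. Both treated groups lay below all DMSO plates. Its log2 fold changes were -3.57 with gefitinib (SE 1.31, edgeR adjusted p = 0.999) and -3.69 with AZD8931 (SE 1.36, edgeR adjusted p = 0.424). DMSO plate 1 held most of its DMSO counts. In UMSCC25 it averaged 31.4 ± 16.6 CPM with gefitinib and 48.7 ± 13.9 CPM with AZD8931, against 76.1 ± 15.6 CPM with DMSO (SD, n = 3 each). In UMSCC8 the means were 51.0 ± 38.6 CPM with gefitinib and 28.3 ± 14.3 CPM with AZD8931, against 88.7 ± 18.5 CPM with DMSO.

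TRCN0000006033, already named among the lowest ratios in the other lines, was again low in UMSCC1. It had 108, 79.1 and 41.1 CPM on the gefitinib plates and 65.6, 59.9 and 81.2 CPM on the AZD8931 plates, against 295, 174 and 104 CPM on the DMSO plates. The AZD8931 plates lay below the DMSO plates, and 1 gefitinib plate lay above the lowest DMSO plate. Its log2 fold changes were -1.38 with gefitinib (SE 0.63, edgeR adjusted p = 0.999) and -1.35 with AZD8931 (SE 0.63, edgeR adjusted p = 0.512). Of the 8 hairpins with the lowest ratios in UMSCC25 and UMSCC8, it was the only 1 among the 5 lowest in UMSCC1. Those 5 were ranked only among members with at least 50 CPM in UMSCC1 DMSO. TRCN0000006169, TRCN0000007127, TRCN0000021199, TRCN0000037763 and TRCN0000003117 of the 8 were under that level and could not be ranked.

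TRCN0000001768 had 85.2, 105 and 53.6 CPM on the gefitinib plates and 160.4, 45.0 and 75.5 CPM on the AZD8931 plates, against 321, 85.0 and 238 CPM on the DMSO plates in UMSCC1, where DMSO plate 2 lay among the treated plates. TRCN0000010078 had 26.5, 34.3 and 100.1 CPM on the gefitinib plates and 34.0, 33.7 and 39.7 CPM on the AZD8931 plates, against 54.2, 81.2 and 112 CPM on the DMSO plates in UMSCC1, and there the AZD8931 plates alone lay below the DMSO plates. In UMSCC8 TRCN0000010078 had 0, 50 and 40 counts on the DMSO plates, so its reference in that line included an empty plate. For TRCN0000001768, the UMSCC25 means were 185 ± 24.5 CPM with gefitinib and 194 ± 74.6 CPM with AZD8931, against 273 ± 49.5 CPM with DMSO, the mildest ratios of the 63 by geometric mean (0.689).

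Other members were higher in UMSCC1 with the inhibitors, opposite to the lines of the rule. TRCN0000001364 had 170.4, 52.7 and 80.4 CPM on the gefitinib plates and 398, 191 and 109.5 CPM on the AZD8931 plates, against 47.7, 96.6 and 102 CPM on the DMSO plates. Its AZD8931 plates lay above every DMSO plate, at a log2 fold change of 1.69 (SE 0.67, edgeR adjusted p = 0.424). TRCN0000021519 had 153, 58.0 and 147 CPM on the gefitinib plates and 255, 45.0 and 251 CPM on the AZD8931 plates, against 126, 42.5 and 28.5 CPM on the DMSO plates, with 1 AZD8931 plate inside the DMSO range, and a log2 fold change of 1.67 with AZD8931 (SE 0.74, edgeR adjusted p = 0.494). TRCN0000010144 had 329, 264 and 352 CPM on the gefitinib plates and 1072, 184 and 429 CPM on the AZD8931 plates, against 319, 224 and 250.4 CPM on the DMSO plates, where AZD8931 plate 1 alone supplied most of the AZD8931 mean.

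TRCN0000037498 and TRCN0000002043 completed the 5 highest among members with at least 50 CPM in UMSCC1 DMSO. Some members under that level had higher fold changes and were not ranked. TRCN0000037498 had 269, 314 and 331 CPM on the gefitinib plates and 656, 315 and 239.8 CPM on the AZD8931 plates, against 276, 305 and 181 CPM on the DMSO plates in UMSCC1. TRCN0000002043 had 146, 174 and 37.5 CPM on the gefitinib plates and 36.4, 149.9 and 79.3 CPM on the AZD8931 plates, against 41.2, 116 and 42.8 CPM on the DMSO plates there. All 3 groups of plates overlapped for both hairpins, although TRCN0000037498 was separated in all 4 comparisons of UMSCC25 and UMSCC8. The partner of TRCN0000002043 by clone number, TRCN0000002039, averaged 198 ± 85.6 CPM with gefitinib and 207 ± 94.6 CPM with AZD8931, against 238 ± 114 CPM with DMSO in UMSCC1 (SD, n = 3 each).

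Among the 8 members with the lowest ratios elsewhere, TRCN0000006169 and TRCN0000007127 were higher in UMSCC1 on all AZD8931 plates than on any DMSO plate. Their DMSO means there were only 28.3 and 19.6 CPM. TRCN0000021199, TRCN0000037763 and TRCN0000003117 were also under 50 CPM, at 14.0, 36.4 and 17.5 CPM. Their UMSCC1 ratios were 0.358, 0.463 and 1.82 with gefitinib and 1.58, 1.77 and 0.870 with AZD8931. TRCN0000006169 had 17.0, 68.6 and 55.4 CPM on the gefitinib plates and 104, 199 and 115 CPM on the AZD8931 plates, against 54.2, 0 and 30.5 CPM on the DMSO plates in UMSCC1, with counts of 25, 0 and 15 on the DMSO plates, and its log2 fold change with AZD8931 was 2.40 (SE 0.91, edgeR adjusted p = 0.424). Its AZD8931 plates had all been below the DMSO plates in UMSCC25 and UMSCC8. TRCN0000007127 had 20.8, 100.2 and 37.5 CPM on the gefitinib plates and 72.9, 48.7 and 88.8 CPM on the AZD8931 plates, against 6.51, 11.6 and 40.7 CPM on the DMSO plates in UMSCC1, with counts of 3, 3 and 20 on the DMSO plates, at log2 fold changes of 1.37 with gefitinib (SE 0.94, edgeR adjusted p = 0.999) and 1.96 with AZD8931 (SE 0.95, edgeR adjusted p = 0.524). TRCN0000001624 had 53.0, 34.3 and 66.1 CPM on the gefitinib plates and 153, 22.5 and 64.2 CPM on the AZD8931 plates, against 191, 7.73 and 71.3 CPM on the DMSO plates and TRCN0000000797 had 94.7, 52.7 and 28.6 CPM on the gefitinib plates and 109, 18.7 and 66.1 CPM on the AZD8931 plates, against 178, 15.5 and 73.3 CPM on the DMSO plates. For both, DMSO plates 1 and 2 lay at the ends of the whole range, so no ratio could be read beyond that spread.

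Of the most abundant members, TRCN0000000371 and TRCN0000001495 had overlapping plates in UMSCC1. TRCN0000000371 had 21561, 9708 and 21853 CPM on the gefitinib plates and 24007, 23573 and 23010.4 CPM on the AZD8931 plates, against 25204, 19386 and 18949 CPM on the DMSO plates. The lowest of these 9 plates was a gefitinib plate and the rest overlapped, at log2 fold changes of -0.32 with gefitinib (SE 0.35, edgeR adjusted p = 0.999) and 0.27 with AZD8931 (SE 0.35, edgeR adjusted p = 0.845). TRCN0000001495 had 901, 619.6 and 547 CPM on the gefitinib plates and 571, 731 and 833 CPM on the AZD8931 plates, against 1009, 649 and 688 CPM on the DMSO plates. TRCN0000115280 had 562, 414 and 685 CPM on the gefitinib plates and 1147, 431 and 544 CPM on the AZD8931 plates, against 1211, 1101 and 822 CPM on the DMSO plates. Its gefitinib plates lay below its DMSO plates, at a log2 fold change of -0.99 (SE 0.46, edgeR adjusted p = 0.999), and the AZD8931 plates overlapped them.

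The TGFBR2 hairpin TRCN0000040011 had 108, 36.9 and 71.5 CPM on the gefitinib plates and 141, 33.7 and 30.2 CPM on the AZD8931 plates, against 108, 92.8 and 50.9 CPM on the DMSO plates in UMSCC1. Its log2 fold changes were -0.29 with gefitinib (SE 0.79, edgeR adjusted p = 0.999) and -0.07 with AZD8931 (SE 0.79, edgeR adjusted p = 0.996), and the plates overlapped with both. The other TGFBR2 hairpin, TRCN0000040008, had UMSCC1 ratios of 0.669 with gefitinib and 0.544 with AZD8931, on a DMSO mean of 47.1 CPM. Its log2 fold changes were -0.70 (SE 1.26) and -1.01 (SE 1.30), and its plates overlapped with both.

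The limit of 0.75 cut through a continuous range. Just inside it stood TRCN0000006314, whose highest ratio was 0.749 with gefitinib in UMSCC25, and TRCN0000010179, whose highest was 0.747 with AZD8931 in UMSCC8. Just outside stood TRCN0000002270 and TRCN0000001518, both with a gefitinib ratio in UMSCC25 that rounds to 0.75 but lies above it, and with their other 3 ratios between 0.559 and 0.739.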

How the data were processed

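The counts deposited by the authors are whole and not normalized, and cover 27 libraries of genomic DNA from UMSCC25, UMSCC8 and UMSCC1 cells. Bowtie 1.0.0, edgeR (version not given) and the build hg19 appear in the submitters' processing notes without their roles, and reads were analysed by the authors' BiNG!S method. Groups and replicate numbers were taken from the sample titles. Counts were divided by the library total to give CPM, and 3 plates were averaged. The 63 members and the lists of shRNAs were chosen with earlier results of these data known. UMSCC25 and UMSCC8 chose the members and were not tested.

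For UMSCC1, the robust quasi-likelihood fit and F test of edgeR 4.0.16 (R 4.3.3, TMM) were applied to the 9 libraries without a replicate term, for shRNAs with at least 10 summed counts, with Benjamini-Hochberg adjustment over all of them. Standard errors were derived from the quasi-likelihood F. An exact permutation test of 3 plates against 3 cannot go below 0.1 and was not used.

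Named shRNAs were the 8 members with the lowest geometric mean ratio, the 6 with the highest DMSO mean, the 5 lowest and 5 highest in UMSCC1 among those with at least 50 CPM in UMSCC1 DMSO, the 6 TGF-β receptor hairpins, the 2 nearest each side of the limit, and any member called in UMSCC1 or separated in all 6 comparisons, of which there were 0. Clone-number partners, the 11 members separated in all 4 comparisons and the 12 lower with both inhibitors in UMSCC1 were named after their values were seen. Alternatives were DESeq2 1.42.0, RLE or total-count scaling, other filters, a fit of 6 libraries, a replicate block, other limits, medians and leaving out each library. The medians per plate in UMSCC1, and the values of the 2389 and the 34 when a UMSCC1 library was left out, were added after seeing the data. Gene positions came from GENCODE release 29. Sequences of the hairpins were not used here.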

Additional observations from a re-analysis of the deposited data

How the results depend on the processing

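The list depended on its limits. It held 31 shRNAs at a ratio limit of 0.67 and 122 at 0.80, 75 and 43 at DMSO minimums of 30 and 100 CPM, 48 with TMM-scaled totals and 91 with medians of plates, 41 of them shared. Leaving out 1 library gave 57 to 87, and 2 to 13 of the 63 were lost. Of the 87 shRNAs chosen without DMSO replicate 1 of UMSCC8, 40.2% met the limit in UMSCC1 with gefitinib, 33.3% with AZD8931 and 25.3% with both. The same shares of the 2389 were 20.1%, 29.9% and 8.46%. Of the 63, the share with both ratios at or under the limit in UMSCC1 was 12.7% at a limit of 0.67 (4.94% of the 2389), and leaving out 1 UMSCC1 library gave 14.3% to 28.6% (8.33% to 13.7% of the 2389). Leaving out 1 UMSCC1 library gave 28.6% to 44.4% with gefitinib (18.3% to 25.1% of the 2389) and 22.2% to 44.4% with AZD8931 (26.0% to 36.9% of the 2389), the highest without DMSO replicate 2 and the lowest without DMSO replicate 1. Without AZD8931 replicate 2 it was 30.2%, against 36.9%. With AZD8931, DESeq2 called 24 shRNAs and edgeR 0 to 1 when a library was left out (1 without DMSO replicate 2), none of them a member. The median log2 fold change of the members with AZD8931 was -0.18 with total counts only (-0.10 over all shRNAs tested). When a library was left out it ran from -0.065 without DMSO replicate 3 to 0.29 without AZD8931 replicate 2, and was 0.20 without DMSO replicate 1. With gefitinib it then ran from -0.38 to -0.12 and was lowest in size without DMSO replicate 1. Fits with a replicate block called 0 shRNAs with either inhibitor and gave member medians of -0.29 with gefitinib and -0.0019 with AZD8931. In UMSCC1, the only line tested, same-numbered plates had correlations of deviations between -0.14 and 0.20. Plate 2 there had the lowest library total of its group with DMSO (258742), AZD8931 (266911) and gefitinib (379275). It also had the lowest member median in each, at 0.575, 0.743 and 0.687. Whether same-numbered plates were handled together is not given. At these depths, 3 counts stood for 5.36 to 16.8 CPM.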
